A study of Mus musculus with 4 samples.

Results

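The regulatory T cell signature genes Foxp3, Ikzf2, Ikzf4, Lrrc32, Nrp1, Nt5e, Entpd1, Gpr83, Itgae and Capg were examined in resting CD4 T cells of mice that lack the Ifitm gene family. They were taken by name, as genes known to mark or serve regulatory T cells, with earlier results of these data known. All 10 were among the 19937 genes that have a probe set of their own on the array, and each had 1 such probe set. The data were 4 Affymetrix Mouse Gene 1.0 ST arrays of total RNA, 2 for each genotype. The WT group held CD4 T cells of wild-type mice, and the IfitmF-/- group held CD4 T cells of mice in which all Ifitm genes are deleted, in every cell of the animal and not only in T cells. All mice were adults of 6 to 8 weeks, and the knockout is on a C57BL/6 background. CD4 T cells were enriched from spleen by removing other cells with antibodies after red cell lysis. The labels also call the cells naive, but no sort on CD25, CD44 or CD62L is described for the arrays, so that regulatory T cells would be among the cells kept. Each array held cells pooled from a pair of mice, purified separately from the others.

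Regulatory T cells (Treg) are the CD4 T cells that restrain immune responses and keep tolerance to self. Their identity is set by the transcription factor Foxp3, whose expression is held up by IL-2 acting through its receptor and STAT5. Helios and Eos, the products of Ikzf2 and Ikzf4, are zinc finger factors of the Ikaros family that work beside Foxp3. On the surface, GARP (Lrrc32) docks latent TGF-β, the ectoenzymes CD39 (Entpd1) and CD73 (Nt5e) turn extracellular ATP into adenosine, and neuropilin 1 (Nrp1), the integrin chain CD103 (Itgae) and the receptor Gpr83 are known as Treg markers. Capg encodes an actin-capping protein that is abundant in Treg and in macrophages.

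The 250 bases before the annotated start are printed for Foxp3 because it names the lineage, and for Gpr83 and Nt5e because these had the most positive and the most negative change of the 10 (RefSeq, GRCm38.p6, plus strand). They lie at chrX:7579426-7579675, chr9:14859960-14860209 and chr9:88327359-88327608. Capitals mark matches on either strand to the TATA box, the core of the cAMP response element or the GC box.
Foxp3: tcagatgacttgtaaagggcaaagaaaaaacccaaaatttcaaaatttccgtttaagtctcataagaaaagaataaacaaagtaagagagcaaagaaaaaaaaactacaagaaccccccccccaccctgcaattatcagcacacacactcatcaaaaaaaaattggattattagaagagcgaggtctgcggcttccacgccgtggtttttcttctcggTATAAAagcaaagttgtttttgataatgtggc
Gpr83: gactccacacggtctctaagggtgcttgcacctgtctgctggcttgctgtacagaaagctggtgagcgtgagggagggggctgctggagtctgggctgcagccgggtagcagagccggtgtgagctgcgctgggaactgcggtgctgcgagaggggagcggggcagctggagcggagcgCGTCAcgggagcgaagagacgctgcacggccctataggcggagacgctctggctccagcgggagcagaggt
Nt5e: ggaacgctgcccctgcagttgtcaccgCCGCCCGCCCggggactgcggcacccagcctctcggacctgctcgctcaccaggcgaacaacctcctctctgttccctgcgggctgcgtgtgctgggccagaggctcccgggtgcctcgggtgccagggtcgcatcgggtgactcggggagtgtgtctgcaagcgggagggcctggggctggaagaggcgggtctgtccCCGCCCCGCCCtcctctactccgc

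Windows were given for 6 of the 10 genes, Lrrc32 not among them, and Foxp3 and Entpd1 had 2 each. The TATA box was searched as TATAAA, which lies 32 bases before the start in the Foxp3 window printed and in no other window of these genes. Over all 32851 such windows 12.4% hold it. The cAMP response element core was searched as TGACG. It lies 71 bases before the start of Gpr83, on the minus strand, and in both windows of Entpd1, beside 17.8% of all windows. The GC box was searched as GGGCGG. It matches 4 times on the minus strand in the Nt5e window, as overlapping pairs, and once in that of Nrp1, and 32.7% of all windows hold it. A match is a description of the letters and not a site.

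The surface genes Lrrc32 and Nt5e fell about 2-fold in IfitmF-/- cells, while Foxp3 was slightly higher on both IfitmF-/- arrays and was not called. Of the 10 genes, 0 were called higher and 2 lower by limma at an adjusted p under 0.05, against 4.48% of all probe sets called higher and 3.95% called lower (8.43% in all). At an unadjusted p under 0.05, 2 were higher and 5 lower, beside 13.8% and 12.6% of all probe sets. The arrays of the genotypes did not overlap for 9 of the 10, 2 higher and 7 lower, which was also true of 57.5% of all probe sets. The median change of the 10 genes was -0.28 on the log2 scale, beside a median of -0.020 over the 19937 genes. Values below are log2 RMA intensities, and changes are IfitmF-/- minus WT. On bulk RNA, changes in the number of Treg, in RNA per Treg and in other cells that express these genes cannot be told apart.

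**Figure D1:**
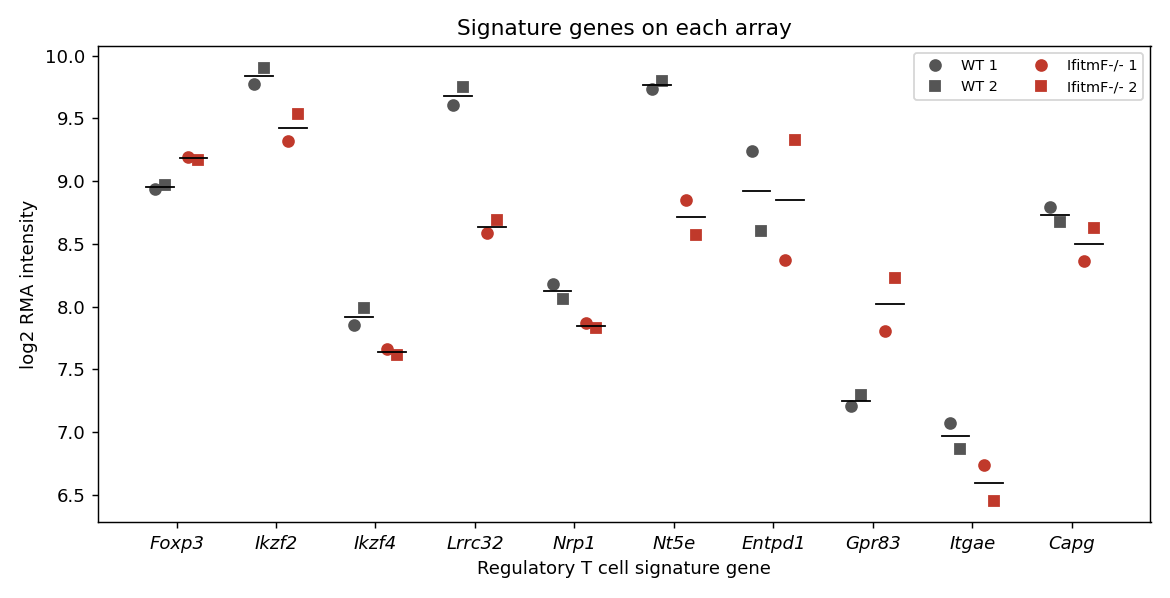
Log2 RMA intensity (y axis) of the 10 signature genes (x axis) on each of the 4 arrays. Grey points are WT, red points IfitmF-/-, circles replicate 1, squares replicate 2, and black bars the mean of a genotype. For Lrrc32 and Nt5e the genotypes lie furthest apart downwards, for Gpr83 upwards, and for Entpd1 they overlap.

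Log2 values of arrays correlated at 0.991 and 0.993 within a genotype and at 0.976 to 0.979 between genotypes. Of the defining CD4 T cell markers 7 were measured, 2 called higher and 1 lower. The marker called lower was Cd28, named after its value was seen. It was at 11.88 and 11.89 in WT and at 11.16 and 11.14 in IfitmF-/- cells (change -0.74, adjusted p = 0.0202 by limma). Cd3e was at 12.08 and 12.15 in WT and at 12.14 and 12.07 in IfitmF-/- cells, Cd3g at 11.65 and 11.69, and at 12.22 and 12.29, and Cd4, added because it defines the cells, at 11.44 and 11.52, and at 11.79 and 11.71. Xist was at 11.32 and 11.25 on the WT arrays and at 4.86 and 4.43 on the IfitmF-/- arrays, whereas the Y-linked Eif2s3y was at 3.90 and 4.05 in WT and at 9.48 and 9.61 in IfitmF-/- cells. Sex and genotype therefore cannot be told apart for any gene below, and Foxp3 is on the X chromosome. The deleted Ifitm3 was at 9.26 and 8.91 in WT and at 4.61 and 4.36 in IfitmF-/- cells. Markers of B cells, myeloid cells, platelets and CD8 T cells are given beside the genes they bear on. All 6 plasma cell markers were lower on both IfitmF-/- arrays and at an unadjusted p under 0.05, 2 of them called (Xbp1 and Irf4, the latter also counted among Treg regulators below), with a mean level of 9.34 and 8.95 in WT and 7.98 and 8.10 in IfitmF-/- cells. NK cell markers went both ways, with 2 of 8 called lower, 0 called higher, and 4 higher and 2 lower at an unadjusted p under 0.05 (median change 0.25). Of 7 neutrophil markers 1 was called higher, and 0 of 7 dendritic cell and 0 of 3 erythroid cell markers were called (1 higher and 1 lower, and 0, at an unadjusted p under 0.05). The part of these cells in the values below was not tested.

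Foxp3 defines the lineage. It was at 8.94 and 8.97 on the WT arrays and at 9.19 and 9.17 on the IfitmF-/- arrays. Both IfitmF-/- arrays lay above both WT arrays by a small step, a 1.17-fold difference. The change was 0.23 with a 95% interval of 0.02 to 0.43 and was not called by limma (adjusted p = 0.161). With any array left out the change was 0.21 to 0.25.

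Ikzf2, which encodes Helios, was at 9.78 and 9.91 in WT and at 9.32 and 9.53 in IfitmF-/- cells. Both IfitmF-/- arrays were lower, and the change of -0.42 (95% interval -0.72 to -0.11) was not called (adjusted p = 0.110). Ikzf4, which encodes Eos, a partner of Foxp3 in repression, was at 7.85 and 7.99 in WT and at 7.66 and 7.61 in IfitmF-/- cells, a change of -0.28 (95% interval -0.53 to -0.04; adjusted p = 0.146). The 3 factors thus had small changes of both signs, with no call among them. Of the other Ikaros family genes, Ikzf1 rose by 0.55 (adjusted p = 0.0332), and Ikzf5 and, chosen after its value was seen, Ikzf3 had changes of -0.36 and 0.11 (adjusted p = 0.0777 and 0.571).

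Lrrc32 encodes GARP, which holds latent TGF-β on the surface of activated Treg and is also found on platelets. It was at 9.61 and 9.75 in WT (intensities of 779.6 and 860.2 on the linear scale) and at 8.59 and 8.69 in IfitmF-/- cells (385 and 412). The genotypes lay 0.92 apart at their nearest, while arrays of a genotype differed by less (SD of 0.10 and 0.069, n = 2). The gene fell 2.06-fold, a change of -1.04 ± 0.096 (SE; adjusted p = 0.0171 by limma). Among the 19937 genes 1.05% had a lower change. Without any one of the 4 arrays the change was -1.11 to -0.97. A lone array is then left in a genotype, so those fits cannot decide the call. Platelet markers had a mean level over 5 genes of 8.50 and 8.10 in WT and 8.62 and 9.78 in IfitmF-/- cells, with 0 of the 5 called. Of these, Ppbp was at 11.38 and 10.67 in WT and at 11.80 and 12.89 in IfitmF-/- cells. The part of platelets in the Lrrc32 values was not tested.

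Nt5e encodes CD73, which makes adenosine from AMP on Treg and on other T and B cells. It was at 9.73 and 9.80 in WT (849.9 and 890.1 units) and at 8.85 and 8.57 in IfitmF-/- cells (462 and 381 units). The genotypes were 0.88 apart at their nearest, and the IfitmF-/- arrays differed more from each other (SD 0.20) than the WT arrays (SD 0.047, n = 2). The gene fell 2.07-fold, a change of -1.05 ± 0.12 (SE; adjusted p = 0.0234 by limma), and 1.03% of genes had a lower change. Without any one array the change was -1.19 to -0.91, and those fits cannot decide the call for the same reason as for Lrrc32. B cell markers were high on WT replicate 1 alone (mean level over 10 genes 9.41, against 7.75 to 8.14 on the other arrays; 0 of 10 called). The part of B cells in the Nt5e values was not tested. Both Lrrc32 and Nt5e also passed the stricter rule of the study's methods, a change over 2-fold that spans 250 or more intensity units, which 1.16% of all probe sets passed.

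Entpd1 encodes CD39, the enzyme that acts before CD73 and is abundant on B cells and myeloid cells as well as Treg. It was at 9.24 and 8.60 in WT and at 8.37 and 9.33 in IfitmF-/- cells. The genotypes overlapped, with 1 high and 1 low array in each, and the change of -0.07 had a 95% interval of -1.13 to 0.99 (adjusted p = 0.933). The sign turned when WT replicate 1 (change 0.25) or IfitmF-/- replicate 1 (change 0.41) was left out. Myeloid markers were high on the same arrays, with a mean level over 8 genes of 8.82 on WT replicate 1 and 9.05 on IfitmF-/- replicate 2, against 8.12 and 8.14 on the others, and with 0 of 8 called. Among them Csf1r, the receptor for a macrophage growth factor, was at 10.71 and 9.70 in WT and at 9.52 and 10.62 in IfitmF-/- cells. The macrophage lysozyme gene Lyz2 ran otherwise, at 9.16 and 8.59 in WT and at 9.81 and 10.62 in IfitmF-/- cells. The part of myeloid cells in the Entpd1 values was not tested. The interval of Entpd1 reaches from a fall to a rise of about 2-fold, so a difference of that size was not measurable on these arrays.

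**Figure D2:**
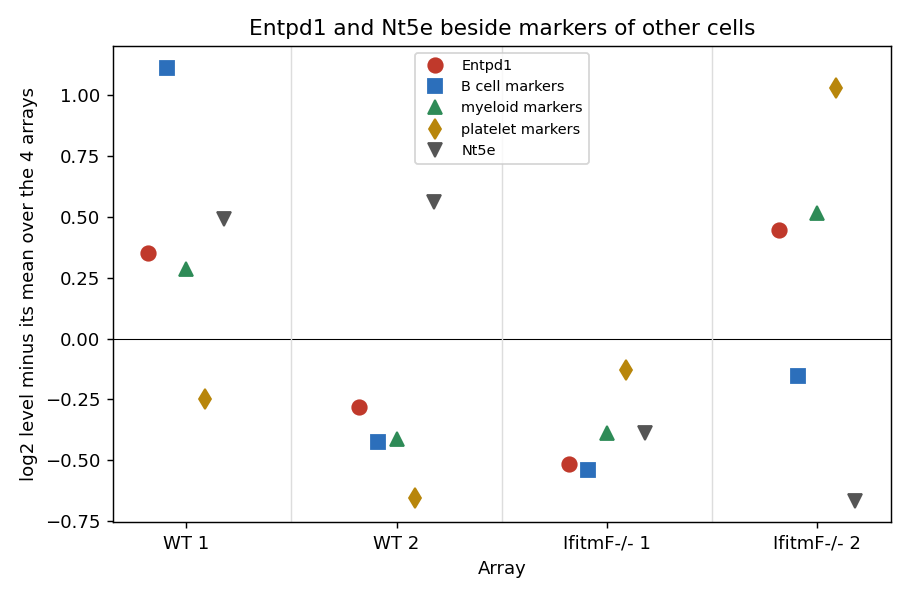
Log2 level of Entpd1 and Nt5e and mean log2 level of B cell, myeloid and platelet marker lists (y axis, each minus its own mean over the 4 arrays) on each array (x axis). Entpd1 and the myeloid markers are both high on WT replicate 1 and IfitmF-/- replicate 2, whereas Nt5e is high on both WT arrays.

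Among the remaining surface genes Gpr83 had the largest positive change. It encodes a G protein-coupled receptor long used as a Treg marker. It was at 7.21 and 7.30 in WT and at 7.80 and 8.23 in IfitmF-/- cells, so that both IfitmF-/- arrays were higher but differed from each other (SD 0.30, against 0.063 in WT). The change was 0.77 with a 95% interval of 0.32 to 1.21, a 1.70-fold difference, and was not called over all probe sets (adjusted p = 0.0682). When fewer probe sets were tested it passed, at an adjusted p of 0.0404 without the dim ones and 0.0354 with those of 1 gene only. In those settings 4032 of 17380 and 3037 of 21640 probe sets were called, against 2930 of 34760 when all were tested. Nrp1, the semaphorin and VEGF co-receptor, was at 8.18 and 8.06 in WT and at 7.87 and 7.83 in IfitmF-/- cells, a change of -0.27 (95% interval -0.51 to -0.04; adjusted p = 0.142).

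Itgae encodes the αE chain of the integrin that binds E-cadherin, and it also marks CD8 T cells and some dendritic cells. It was the dimmest of the 10, at 7.07 and 6.86 in WT and at 6.74 and 6.45 in IfitmF-/- cells, a change of -0.37 (95% interval -0.75 to 0.0050; adjusted p = 0.193) that was -0.51 to -0.23 with any array left out. Its partner chain gene Itgb7 had a change of 0.25 (adjusted p = 0.167). Of the CD8 T cell markers, 0 of 2 called, Cd8a was at 6.71 and 6.21 in WT and at 5.85 and 5.98 in IfitmF-/- cells and Cd8b1 at 8.64 and 8.06, and at 8.56 and 8.50. The part of CD8 T cells in the Itgae values was not tested. Capg was at 8.80 and 8.67 in WT and at 8.37 and 8.62 in IfitmF-/- cells, nearly touching between the genotypes, with a change of -0.24 (95% interval -0.57 to 0.09; adjusted p = 0.307) that was -0.37 to -0.11 with any array left out.

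**Figure D3:**
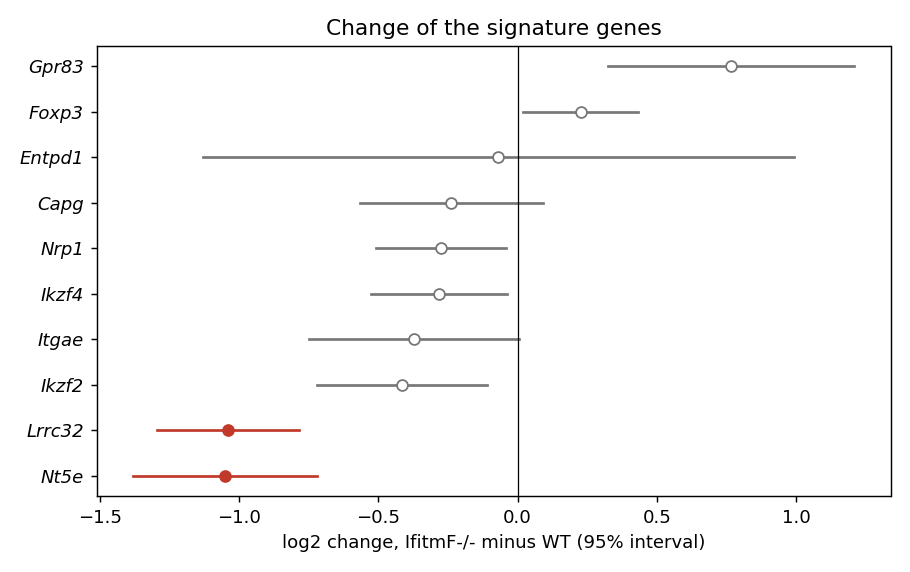
Log2 change (x axis, IfitmF-/- minus WT) of each signature gene (y axis) with its 95% interval from limma. Red filled points are the genes called at an adjusted p under 0.05, Lrrc32 at -1.04 and Nt5e at -1.05, and open grey points the 8 that were not.

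The changes of the other 9 genes were also set against that of Foxp3 within each array. Relative to Foxp3, the change was -1.27 for Lrrc32 and -1.28 for Nt5e, -0.64 for Ikzf2, -0.51 for Ikzf4, -0.50 for Nrp1 and 0.54 for Gpr83. The ratios of the genotypes did not overlap for these 6 genes, nor for Itgae (-0.60) and Capg (-0.47), as for 75.5% of all other probe sets set against Foxp3, and the exact two-sided permutation p was 0.333 for each of the 8, before adjustment over 9 genes, which is the smallest that 2 arrays against 2 can give. For Entpd1 the relative change was -0.30 with overlap (exact permutation p = 0.667). No difference in change from Foxp3 can therefore be called from these ratios.

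Other genes of the Treg programme were counted over 11 lists, of which 119 of 129 genes were measured. Of these, 7 were called higher and 29 lower (30.3%, against 8.57% of the 19937 genes), with a median change of -0.16. The lists were chosen with earlier results of these data known, so the contrast with all genes is not an independent test of the programme. With dim probe sets left out, 7 of 104 listed genes were called higher and 33 lower, beside 4032 of all 17380 probe sets. The share of 8.57% also stands beside the count of each list below. With any 1 of the 4 arrays left out a genotype has a lone array, so those fits cannot decide the calls of these genes. Many of these genes are also expressed by activated CD4 T cells that are not Treg.

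In the IL-2 and STAT5 axis, which sustains Foxp3, 1 of 9 genes was called higher and 4 lower. The STAT5 target and feedback gene Cish was at 9.55 and 9.51 in WT and at 7.81 and 7.80 in IfitmF-/- cells, and it fell by 1.73 (adjusted p = 0.0107). Stat5a (-1.26), Socs3 (-1.08), which encodes a brake on cytokine signalling, and the receptor β chain gene Il2rb (-0.76) fell as well, with adjusted p values of 0.0180, 0.0182 and 0.0240. The single rise, named after its value was seen, was that of the receptor α chain gene Il2ra (CD25), from 9.87 and 9.81 to 10.34 and 10.37 (change 0.51, adjusted p = 0.0379). The α and β chain genes of the IL-2 receptor thus parted in sign. The γ chain gene Il2rg had no probe set of its own and was not measured, nor was Jak3. Stat5b, at -0.27, and Jak1, at -0.16, were not called (adjusted p = 0.161 and 0.315).

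Among other Treg surface receptors, 9 of 16 were called lower and 1, Il2ra, higher. Ctla4 (-1.47), the inhibitory receptor gene, the TNF receptor genes Tnfrsf4 (-1.43) and Tnfrsf1b (-1.07) and the costimulatory gene Icos (-1.25) had adjusted p values of 0.0144 to 0.0163. Others of the 9, named after their values were seen, were the inhibitory receptor gene Tigit (-1.67) and the GITR gene Tnfrsf18 (-0.78), with adjusted p values of 0.0269 and 0.0304. Cd5 and Lag3 had changes of 0.28 and -0.34 and were not called (adjusted p = 0.145 and 0.259).

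Of 9 suppressor mediators, 3 were called lower and 0 higher. At an unadjusted p under 0.05, 2 were higher and 4 lower, beside 13.8% and 12.6% of all probe sets. The granzyme gene Gzmb (-1.02), the enkephalin precursor gene Penk (-1.22) and Il10 (-1.75) had adjusted p values of 0.0199, 0.0274 and 0.0215. Il12a and the galectin gene Lgals1 had changes of -0.56 and 0.29 (adjusted p = 0.0929 and 0.113). Tgfb1, named after its value was seen, was at 10.39 and 10.20 in WT and at 10.20 and 10.37 in IfitmF-/- cells (change -0.0076, 95% interval -0.31 to 0.30, adjusted p = 0.976). In the latent TGF-β axis around GARP, 5 of 12 genes were called lower and 0 higher. They included the inhibitory Smad gene Smad7 (-1.62), the convertase gene Furin (-0.84), the receptor gene Tgfbr2 (-0.72) and the signal transducer gene Smad3 (-0.51). The other, named after its value was seen, was the integrin chain gene Itgav (-0.53). The adjusted p values of the 5 were 0.0130 to 0.0411. Smad2 and Smad4 had changes of -0.18 and -0.14 (adjusted p = 0.327 and 0.330). Lrrc32 thus fell together with genes of a TGF-β receptor chain, a signal transducer and the inhibitory Smad7. For the ligand gene the arrays of the genotypes overlapped.

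The adenosine axis beyond CD39 and CD73 gave 0 calls among 6 measured genes by limma, beside 8.57% of the 19937 genes. At an unadjusted p under 0.05, 1 was higher and 1 lower, beside 13.8% and 12.6% of all probe sets. The adenosine receptor genes Adora1, Adora2a, Adora2b and Adora3 had no probe set of their own and were not measured. The transporter genes Slc29a1 and Slc28a2 had changes of -0.45 and 0.34 (adjusted p = 0.101 and 0.113). Dpp4, named after its value was seen, had a change of 0.18 (adjusted p = 0.222). Among the paralogues of the 10 genes, 2 of 24 were called higher and 0 lower, a share near the 8.57% called among the 19937 genes. Apart from Ikzf1 the gene called higher was Entpd4, which encodes a nucleotidase of internal membranes (0.77, adjusted p = 0.0212). At an unadjusted p under 0.05, 3 paralogues were higher and 4 lower, beside the same 13.8% and 12.6%. The integrin chain gene Itgal was not called (-0.39, adjusted p = 0.0771).

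Of 25 regulators and partners of Foxp3, 2 were called higher and 7 lower. The orphan nuclear receptor genes Nr4a3 (-3.33), Nr4a2 (-2.68) and Nr4a1 (-1.68) and the NF-κB gene Rel (-1.72), which drive Foxp3 on T cell receptor signals, had adjusted p values of 0.00778 to 0.0202. The 2 called higher were the methylcytosine dioxygenase gene Tet3 (0.68) and Creb1 (0.63), with adjusted p values of 0.0290 and 0.0322. Both were named after their values were seen, and their products act at the Foxp3 locus. Foxo1 and Nfatc1, which also act on Foxp3, had changes of -0.31 and -0.32 (adjusted p = 0.100 and 0.116). Of 7 effector Treg regulators, Rora (-1.96) and Irf4 (-2.11) were called lower (adjusted p = 0.0131 and 0.0264) and 0 higher. Prdm1 and Gata3 were not called (-0.55 and -0.26, adjusted p = 0.0844 and 0.133). Among 8 partners and ligands of the surface genes 1 was called, Vegfa, which binds Nrp1 (-1.23, adjusted p = 0.0430). Of 7 other signature transcripts 1, Cish, was called lower, and Plagl1 and Swap70 were not called (-1.71 and -0.58, adjusted p = 0.0615 and 0.104).

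Of 7 genes that Treg express less than conventional CD4 T cells, 2 were called higher and 0 lower. Dapl1, a gene of naive T cells, rose by 0.91 (adjusted p = 0.0225), and the IL-7 receptor gene Il7r by 0.46 (adjusted p = 0.0472). At an unadjusted p under 0.05, 2 of the 7 were higher and 2 lower, beside 13.8% and 12.6% of all probe sets. Satb1 and Pde3b, which Foxp3 represses, had changes of -0.33 and -0.27 (adjusted p = 0.122 and 0.132).

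**Figure D4:**
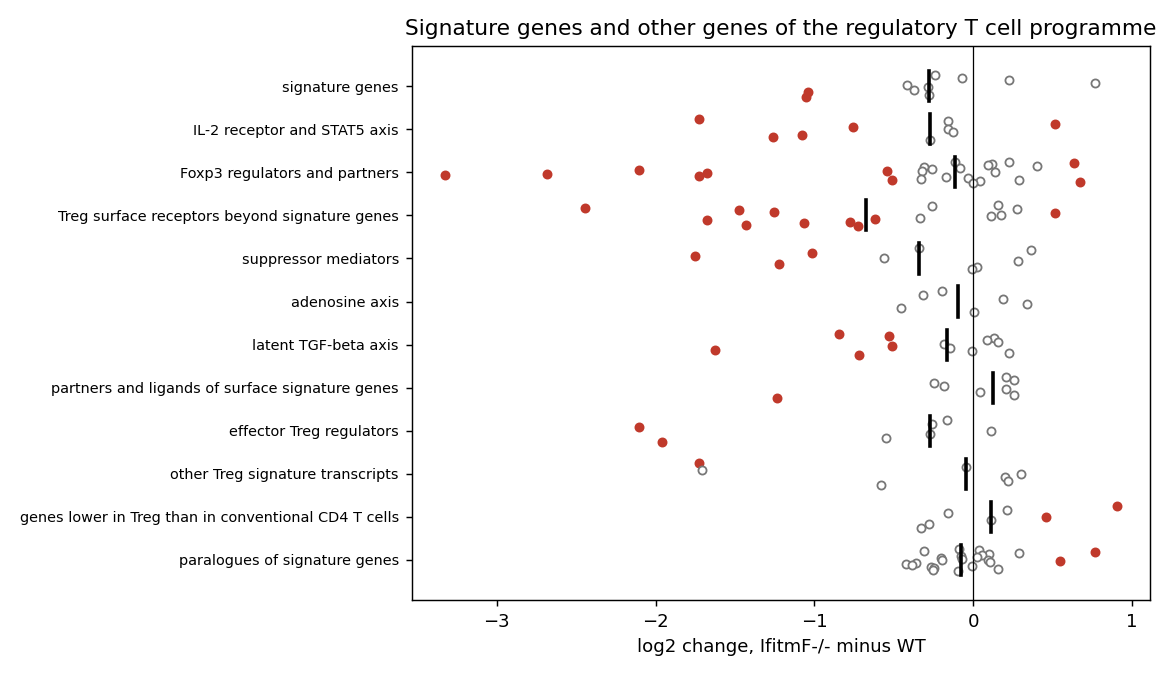
Log2 change (x axis, IfitmF-/- minus WT) of each measured gene of the signature and of 11 other lists (y axis). Filled red points are called at an adjusted p under 0.05, open grey points are not, and black bars are medians, -0.28 for the signature genes and -0.67 for the other Treg surface receptors.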

How the data were processed

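Affymetrix Mouse Gene 1.0 ST arrays were made from splenic CD4 T cells, 2 arrays per genotype. The authors deposited linear RMA intensities. The submitters' processing notes name RMA and affy, and versions are not given in the sources used here. RMA normalizes arrays to one distribution, so changes are relative to each array as a whole. Precision is limited by the number of arrays.

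The log2 of each intensity was tested over all 34760 probe sets with limma 3.58.1 in R 4.3.3 (lmFit, eBayes, Benjamini-Hochberg, call at an adjusted p under 0.05). The platform annotation named 1 gene for 21640 probe sets; a gene was represented by that of highest mean. Signature genes and lists were chosen with earlier results of these data known. Genes named were the 10, up to 4 called and 2 uncalled genes of smallest p of each list, and the markers of highest level, unless said otherwise. The test was checked on simulated data. Alternatives changed the variance prior, normalization, filter, offset, test, pairing and arrays. Genes without a probe set of their own were not analysed here.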

Additional observations from a re-analysis of the deposited data

How the results depend on the processing

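Precision is that of 2 arrays per genotype. A trended or robust variance prior, a further quantile normalization, centring on array medians and adding 16 before the log changed no call among the 10 genes. No gene of the 10 had another probe set of its own to try. Without dim probe sets, and with probe sets of 1 gene only, 1 of the 10 was called higher, Gpr83. A larger share of all probe sets was called there, 4032 of 17380 and 3037 of 21640, against 2930 of 34760. The stricter rule left 403 probe sets called, and 0 higher and 16 lower genes of the Treg programme. The methods' t-test called 4 of 34760 probe sets after adjustment and 0 genes of the 10 or of the programme in either direction (unadjusted p under 0.05 for 6811 probe sets). Leaving out any array, with the lone array left assumed to vary like the other genotype, gave 0 calls for probe sets, signature genes and the programme, at 6062 to 9107 unadjusted. Of the 10 genes 9 kept their sign without each array. The genotypes did not overlap for these 9, so leaving out an array could not have turned their sign. Entpd1 turned, with changes of -0.55 to 0.41 (0.25 without WT replicate 1). Same-numbered arrays of the genotypes deviated with a correlation of -0.12. With 2 arrays per genotype this value cannot decide whether the numbers pair the arrays. With the replicate block 0 probe sets were called, and 0 genes of the 10 and of the programme (8016 probe sets at an unadjusted p under 0.05). With the crossed block, chosen after seeing the data, 975 probe sets were called, with 0 higher and 2 lower among the 10, and 0 and 17 in the programme. Why these counts moved was not tested.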
